A study of Homo sapiens with 4 samples.

Results

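The genes described here encode the machinery of homologous recombination and of the Fanconi anaemia pathway, with POLQ, which works in a competing route, and the checkpoint kinases that signal DNA damage. They were chosen by gene name, and all 41 names were found among the 58302 genes of the files. Their messenger RNA was measured by mRNA-seq in HepG2, an established human hepatocellular carcinoma cell line of wild-type genotype by its labels. The cells were given melatonin at 1 mM or DMSO, the control, for 24 h or for 48 h, and 1 library was made for each of the 4 conditions. No condition was repeated, so the variation between cultures is unknown and no p-value is given. In cells taken in bulk, fewer cells that express a gene and less RNA per cell cannot be told apart.

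Homologous recombination repairs a broken DNA end by copying an intact sister chromatid, and it therefore works mainly in the S and G2 phases of the cell cycle. Ends are first trimmed to single strands, BRCA1 and BRCA2 with their partners load the strand-exchange recombinase on them, and the joint molecules that form are then dissolved or cut. The Fanconi pathway detects cross-links between the DNA strands, marks FANCD2 and FANCI with ubiquitin, and passes the lesion on to recombination. Hepatocytes in the resting liver rarely divide, while a carcinoma line such as HepG2 cycles in culture.

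The deposited values are FPKM, a count of sequenced fragments divided by gene length and by the size of the library. The reads behind them were recovered from FPKM and gene length, and they summed to between 21616676 and 23086025 on genes per library. A member held between 29 and 3265 reads in a library, and 3 reads on a gene of 1 kb stood for an FPKM of 0.135 to 0.163. Intervals of levels and ratios below are 95% exact intervals of these reads, and like the limit of 3 reads they cover counting error only. Changes are given as log2 of FPKM + 1 in a library over FPKM + 1 in another, which shrinks the differences of weakly expressed genes. Genes entered a comparison, and are called tested, if at least 1 of its libraries had an FPKM of 1 or more, and 2-fold means a value of at least 1 or at most -1 on that scale. All 10 hepatocyte markers stood at an FPKM of at least 8.94 in every library, with ALB between 2717 and 3343. Of 8 markers of blood, vessel and connective tissue cells, 5 stayed under 1 in every library, including PTPRC, PECAM1 and COL1A1. LYZ stood between 729 and 1069, ACTA2 between 2.11 and 3.81, and PDGFRB between 0.774 and 4.33.

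Of the 41 members, 38 were tested in every comparison. RAD51B, RAD54B and RAD50 had an FPKM under 1 in each library, and RAD50 was nearest to the threshold with 0.992 in the DMSO library of 24 h. BRCA2, RAD51D, BLM, FANCB and FANCM passed only through the other libraries, since they were under 1 with DMSO at 48 h, and the other 33 members were at 1 or more throughout. These were genes of middling level. The median FPKM of the 41 members was 4.17 with DMSO against 5.16 with melatonin at 24 h, and 2.58 and 4.58 at 48 h. Over the genes tested at 48 h the median was between 4.82 and 4.91 in each library, so the members' median was farthest from it in the DMSO library of 48 h. The members' medians include the 3 untested members, while the median over tested genes leaves out such weakly expressed genes. Summed over the members, FPKM was 206 with DMSO against 238 with melatonin at 24 h, and 114 and 192 at 48 h.

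The DMSO library of 48 h was the lowest of the 4 for 37 of the 41 members. The melatonin library of 24 h was the highest for 29 members, the DMSO library of 24 h and the melatonin library of 48 h for 5 each, and the DMSO library of 48 h for 2. For 19 members the order from the highest was melatonin 24 h, DMSO 24 h, melatonin 48 h and DMSO 48 h, and for 10 members the middle pair was exchanged. With melatonin at 48 h, 24 members lay between the DMSO levels of 48 h and 24 h, and 16 lay above the DMSO level of 24 h. Many neighbours in these orders have overlapping counting intervals, as the plot of levels by library shows. The orders were counted for the members only, so no share over all genes stands beside them.

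**Figure D1:**
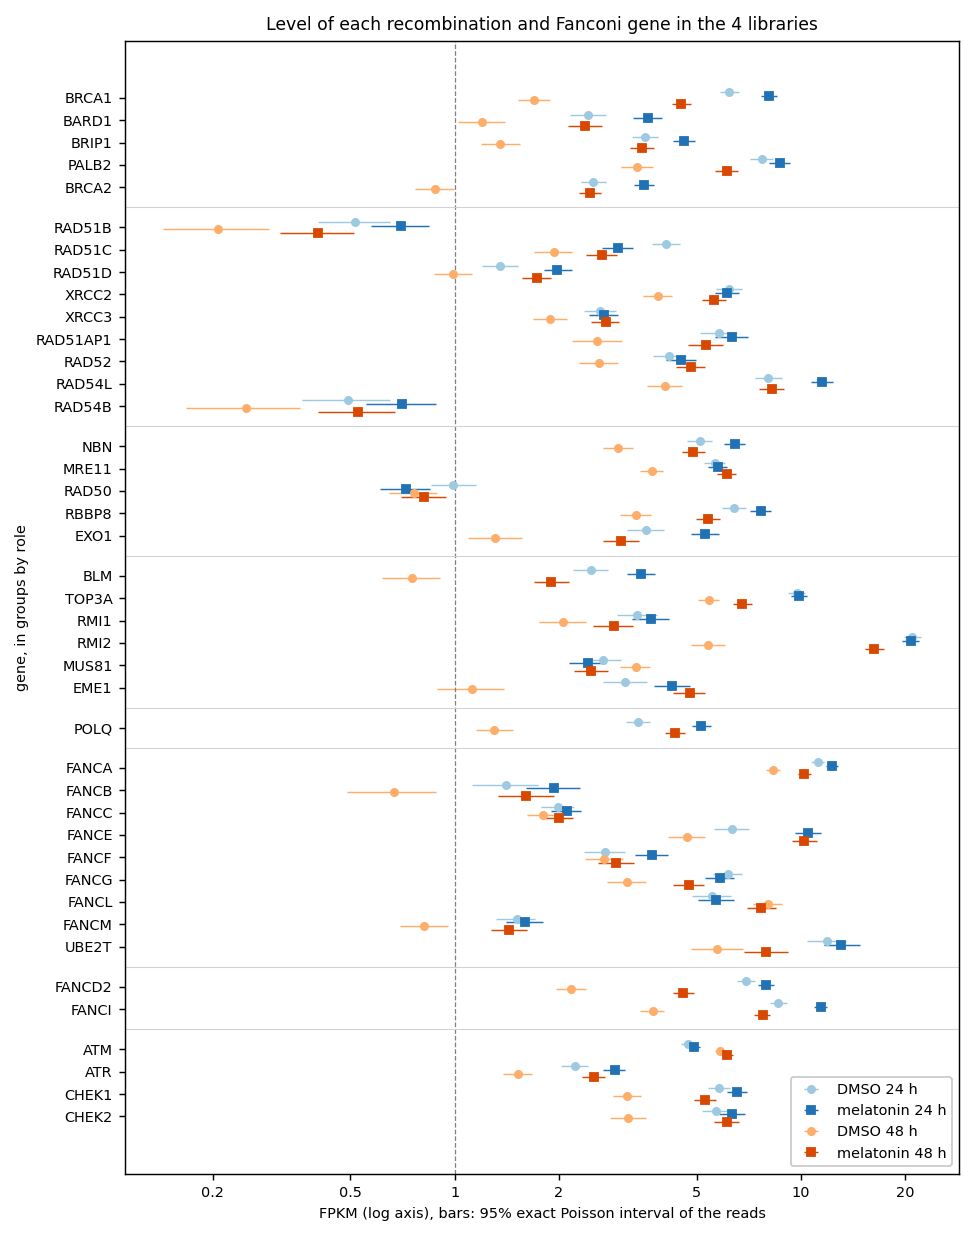
FPKM of the 41 genes on a log axis in the 4 libraries, with 95% exact Poisson intervals of the recovered reads as bars and the FPKM of 1 as a dashed line. The DMSO library of 48 h (light orange circles) lies farthest left for 37 genes, and FANCL, MUS81 and ATM are among the 4 for which it does not.

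At 48 h, 36 of the 38 tested members were higher with melatonin than with DMSO, and the median log2 fold change was 0.60. Of all 13805 genes tested, 47.5% were higher, and their median was -0.02. The 4 that passed 2-fold were RMI2 and EME1, which act on joint molecules, POLQ and BRCA1. Of all tested genes 2.39% were 2-fold higher and 3.32% were 2-fold lower, and 0 members were 2-fold lower. The interval of the plain ratio lay above 1 for 33 tested members, against 29.1% of all tested genes, and below 1 for 1 member, MUS81, against 33.1%. Without the added 1, the ratio of FPKM was at least 2 for 14 of the 38 tested members, against 5.9% of all tested genes.

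EME1, the partner subunit of the MUS81 nuclease that cuts joint molecules, had the largest ratio. It stood at an FPKM of 3.11 with DMSO against 4.25 with melatonin at 24 h, and at 1.12 and 4.77 at 48 h. The 81 reads with DMSO and 349 reads with melatonin at 48 h gave a ratio of 4.26, with an interval of 3.33 to 5.49, and a log2 fold change of 1.44. The melatonin library of 48 h was the highest of the 4 and the DMSO library of that time the lowest.

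RMI2, a small subunit of the complex that dissolves joint molecules, was the most abundant member at 24 h. Its FPKM was 21.0 with DMSO against 20.8 with melatonin at 24 h, so that these libraries did not differ beyond counting error (ratio 0.988, interval 0.907 to 1.08). At 48 h it was 5.40 with DMSO and 16.3 with melatonin, a ratio of 3.02 with an interval of 2.66 to 3.44 and a log2 fold change of 1.44. The DMSO library of 48 h stood apart below the other libraries.

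POLQ encodes polymerase theta, which joins resected ends through short stretches of matching sequence. Its FPKM was 3.38 with DMSO against 5.16 with melatonin at 24 h, and 1.30 and 4.33 at 48 h. Both melatonin libraries were above both DMSO libraries, with a ratio of 1.52 (interval 1.38 to 1.69) at 24 h and of 3.33 (interval 2.90 to 3.83) at 48 h. On the log2 scale these were changes of 0.49 and 1.21.

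BRCA1, the tumour suppressor that directs breaks toward recombination, stood at 6.22 with DMSO against 8.09 with melatonin at 24 h, and at 1.70 and 4.52 at 48 h. The ratio was 1.30 (interval 1.20 to 1.41) at 24 h and 2.65 (interval 2.34 to 3.02) at 48 h, and the log2 fold changes were 0.33 and 1.03. On the log2 scale FANCE, a bridge between the Fanconi core complex and FANCD2, came next at 48 h and just short of 2-fold. It stood at 6.31 with DMSO against 10.5 with melatonin at 24 h and at 4.68 and 10.2 at 48 h, with log2 fold changes of 0.65 and 0.98. Without the added 1, the ratio at 48 h was 2.19 for FANCE. It was higher for BRCA2 with 2.80 (interval 2.41 to 3.27), BRIP1 with 2.58, BLM with 2.53, FANCB with 2.42 and EXO1 with 2.31. FANCE had the largest change of all members at 24 h, and its melatonin libraries did not differ beyond counting error (ratio of 48 h to 24 h of 0.977, interval 0.868 to 1.10).

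**Figure D2:**
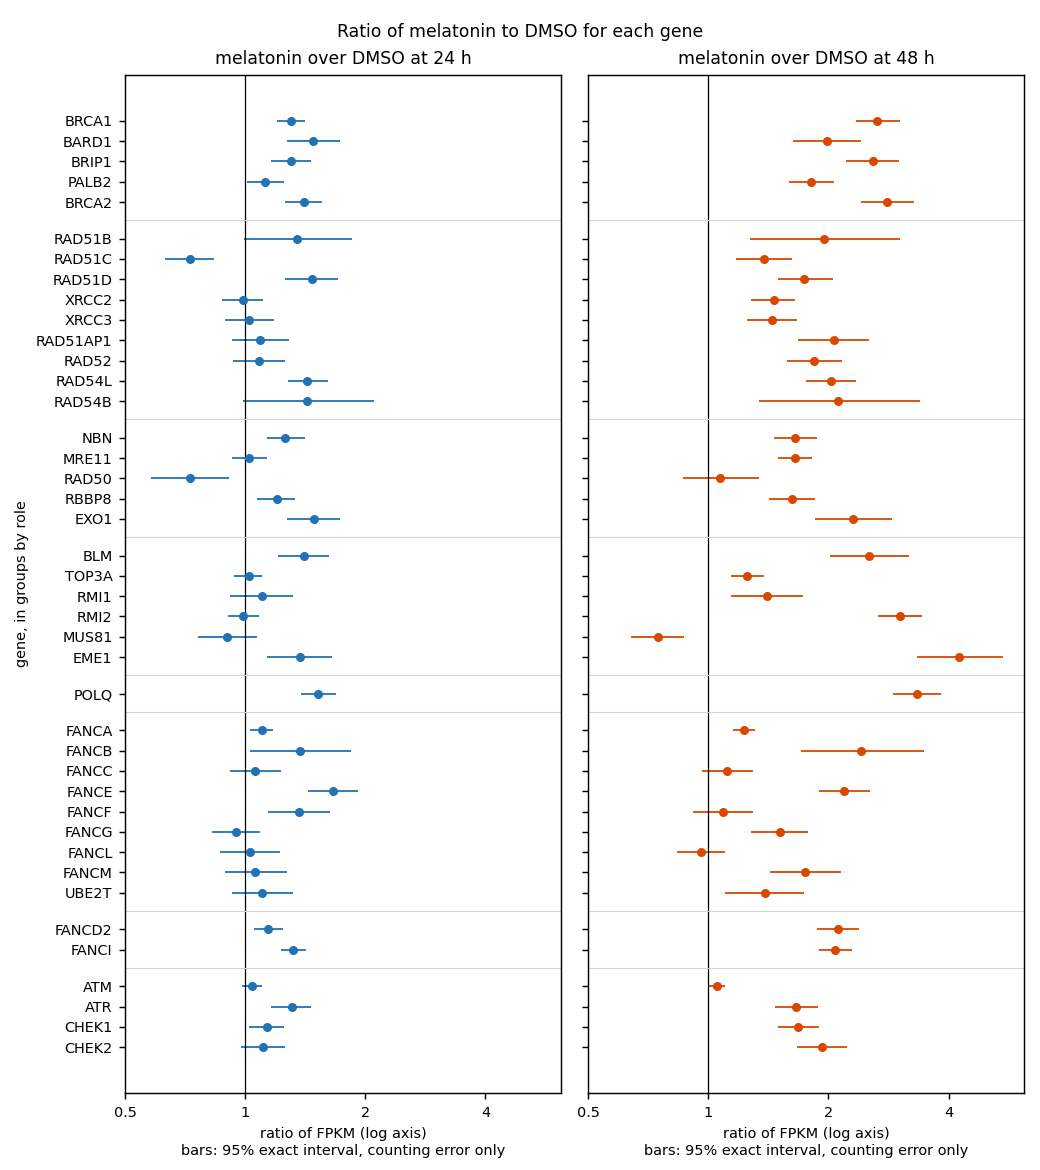
Ratio of the melatonin to the DMSO FPKM on a log axis for the 41 genes at 24 h (left) and at 48 h (right), with 95% exact intervals that cover counting error only and a vertical line at 1. At 24 h the ratios lie between 0.726 and 1.66, and at 48 h between 0.746 for MUS81 and 4.26 for EME1.

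For the members with the largest log2 fold changes at 48 h, the bases before the gene start are shown because members that are high together can be compared for what their promoters hold. They come from RefSeq on GRCh38.p14, whose table had an entry for 37 of the 41 members and none for RMI2, FANCI, NBN and RAD54B. The sequences are in the gene's direction, capitals mark matches to 4 motifs that were searched on both strands, and bases annotated as untranslated region of any gene in GENCODE 44 are left out. The EME1 stretch is chr17:50372979-50373170 (plus strand), the POLQ stretch is chr3:121545989-121546238 (minus strand) and the FANCE stretch is chr6:35452088-35452337 (plus strand).
EME1: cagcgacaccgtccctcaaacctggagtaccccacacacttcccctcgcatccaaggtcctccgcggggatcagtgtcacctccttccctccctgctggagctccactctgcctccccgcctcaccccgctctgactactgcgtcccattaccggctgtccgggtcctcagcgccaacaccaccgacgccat
POLQ: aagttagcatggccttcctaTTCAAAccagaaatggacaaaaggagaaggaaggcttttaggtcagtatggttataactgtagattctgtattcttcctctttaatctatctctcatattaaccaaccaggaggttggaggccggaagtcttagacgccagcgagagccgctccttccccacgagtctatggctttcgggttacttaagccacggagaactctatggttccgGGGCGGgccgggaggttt
FANCE: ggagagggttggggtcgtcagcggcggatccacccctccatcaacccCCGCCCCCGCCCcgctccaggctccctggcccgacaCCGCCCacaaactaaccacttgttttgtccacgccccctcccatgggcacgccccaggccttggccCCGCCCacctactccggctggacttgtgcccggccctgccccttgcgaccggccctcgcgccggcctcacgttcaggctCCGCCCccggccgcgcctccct
The POLQ stretch holds a CHR match on the other strand and a GC box, the FANCE stretch holds 5 GC boxes on the other strand, and the EME1 stretch holds no match. The BRCA1 window of the table starts 44963 bp from the start of the canonical BRCA1 transcript in GENCODE 44, so it is not printed.

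The motifs were counted in the whole window of 250 bases before and 50 bases after the start, and a base could belong to more than 1 motif. A match is a description of letters and not a binding site. The E2F motif was TTTCCCGC, TTTCGCGC, TTTGCCGC or TTTGGCGC, and it was found in 5 of the 37 members (13.5%), which were EXO1, FANCA, FANCC, FANCD2 and XRCC2. Over all 35116 promoters of the table it was found in 3.31%, and in the promoters of 31 replication fork genes in 51.6%. The CHR motif, TTTGAA, was in 13.5% of the members and 15.2% of all promoters, CCAAT was in 43.2% and 34.6%, and the GC box, GGGCGG, was in 73% and 45%. In the replication fork promoters, CHR was in 0%, CCAAT in 61.3% and the GC box in 74.2%. The members' windows had a median GC content of 64% against 58.7% over all promoters. The median log2 fold changes at 48 h of members with and without a motif were 0.45 and 0.57 for E2F, 0.41 and 0.57 for CHR, 0.51 and 0.56 for CCAAT and 0.59 and 0.38 for the GC box. For 34 of the 37 members the start used was within 1000 bp of that of the canonical transcript, and for BRCA1, RAD51B and CHEK1 it was not.

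In the BRCA complex and its mediators, all 5 members had an interval above 1 at both times, with median log2 fold changes of 0.33 at 24 h and 0.88 at 48 h. BRCA2, which carries the recombinase to single-stranded DNA, stood at 2.51 with DMSO against 3.52 with melatonin at 24 h, and at 0.877 and 2.46 at 48 h. Its level with melatonin at 48 h was close to that with DMSO at 24 h, and only the DMSO library of 48 h was under an FPKM of 1. PALB2, the link between BRCA1 and BRCA2, stood at 7.72 and 8.68 at 24 h and at 3.37 and 6.10 at 48 h. BARD1, the obligate partner of BRCA1, stood at 2.43 and 3.61 at 24 h and at 1.20 and 2.38 at 48 h. The helicase BRIP1 stood at 3.54 and 4.60 at 24 h and at 1.35 and 3.48 at 48 h. In each of these genes the DMSO library of 48 h was the lowest and the melatonin library of 24 h the highest.

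Among the paralogs and partners of the recombinase, 5 of the 7 tested members were higher with melatonin at 24 h and 7 of 7 at 48 h, and 0 passed 2-fold. Their median log2 fold changes were 0.09 at 24 h and 0.45 at 48 h. RAD54L, a motor protein that helps strands to exchange, stood at 8.06 with DMSO against 11.5 with melatonin at 24 h, and at 4.05 and 8.23 at 48 h. RAD52, an annealing protein, stood at 4.17 and 4.51 at 24 h and at 2.61 and 4.80 at 48 h. RAD51AP1, which stimulates strand invasion, stood at 5.79 and 6.32 at 24 h and at 2.59 and 5.32 at 48 h. For these 3 genes the melatonin level of 48 h was at or near the DMSO level of 24 h, and the interval at 24 h lay above 1 only for RAD54L.

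The 4 tested paralogs had log2 fold changes of 0.32 to 0.45 at 48 h, and the 3 tested partners of 0.68 to 0.87. XRCC2 stood at 6.21 with DMSO against 6.12 with melatonin at 24 h, and at 3.86 and 5.62 at 48 h. XRCC3 stood at 2.63 and 2.70 at 24 h and at 1.89 and 2.73 at 48 h. Both differed by less than counting error at 24 h, and at 48 h the ratio was 1.46 (interval 1.28 to 1.65) for XRCC2 and 1.44 (interval 1.25 to 1.67) for XRCC3. RAD51D stood at 1.35 and 1.98 at 24 h and at 0.992 and 1.73 at 48 h.

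RAD51C, a paralog that sits in both paralog complexes, was the exception at 24 h. It stood at an FPKM of 4.08 with DMSO against 2.96 with melatonin at 24 h, and at 1.93 and 2.66 at 48 h. It was the only tested member with an interval below 1 at 24 h (ratio 0.726, interval 0.630 to 0.835), against 22.4% of all tested genes, and at 48 h its interval lay above 1 (ratio 1.38, interval 1.17 to 1.62). The untested RAD50 also had a ratio below 1 at 24 h, of 0.727 with an interval of 0.579 to 0.911.

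End resection begins with the complex of MRE11, RAD50 and NBN, is started with the help of RBBP8 and is carried on by the nuclease EXO1. NBN stood at 5.10 with DMSO against 6.44 with melatonin at 24 h, and at 2.96 and 4.89 at 48 h. MRE11 stood at 5.63 and 5.75 at 24 h and at 3.71 and 6.11 at 48 h. RAD50 stood at 0.992 and 0.722 at 24 h and at 0.761 and 0.816 at 48 h, so the 3 subunits of this complex did not share a level or an order of libraries. RAD50 shares 90061 bp with another gene on the same strand, and how reads there were divided was not tested. RBBP8 stood at 6.41 and 7.66 at 24 h and at 3.33 and 5.41 at 48 h. EXO1 stood at 3.57 and 5.30 at 24 h and at 1.31 and 3.02 at 48 h, which were the widest ratios of the group, 1.49 (interval 1.27 to 1.73) and 2.31 (interval 1.85 to 2.88). All 4 tested members of the group had an interval above 1 at 48 h.

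The complex that dissolves joint molecules consists of the helicase BLM, the topoisomerase TOP3A and the subunits RMI1 and RMI2. BLM stood at 2.47 with DMSO against 3.45 with melatonin at 24 h, and at 0.752 and 1.90 at 48 h, a ratio of 2.53 (interval 2.02 to 3.19) at the later time. TOP3A stood at 9.72 and 9.87 at 24 h and at 5.42 and 6.78 at 48 h, and RMI1 at 3.37 and 3.70 and then at 2.05 and 2.88. The ratios of the 4 subunits at 48 h thus ran from 1.25 (interval 1.14 to 1.38) for TOP3A to 3.02 for RMI2, and the intervals of RMI2 and BLM did not overlap those of TOP3A and RMI1.

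MUS81, the nuclease that cuts joint molecules, went the other way from its partner EME1. It stood at 2.69 with DMSO against 2.42 with melatonin at 24 h, and at 3.33 and 2.48 at 48 h. The ratio was 0.902 (interval 0.759 to 1.07) at 24 h and 0.746 (interval 0.640 to 0.868) at 48 h, and the DMSO library of 48 h was its highest. With DMSO, EME1 was above MUS81 at 24 h and below it at 48 h, and with melatonin EME1 was above it at both times. With DMSO at 24 h the intervals of their levels overlapped, 2.68 to 3.59 for EME1 and 2.37 to 3.03 for MUS81.

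In the Fanconi core complex with UBE2T, the enzyme that supplies ubiquitin, 8 of 9 members were higher with melatonin at each time, and median log2 fold changes were 0.12 at 24 h and 0.41 at 48 h. FANCA, a scaffold subunit, stood at 11.2 with DMSO against 12.3 with melatonin at 24 h, and at 8.33 and 10.2 at 48 h. FANCG, its direct partner, stood at 6.15 and 5.84 at 24 h and at 3.14 and 4.74 at 48 h. UBE2T stood at 11.9 and 13.1 at 24 h and at 5.74 and 7.95 at 48 h. These 3 were lowest with DMSO at 48 h, as were FANCB, FANCC, FANCE, FANCF and FANCM. FANCB had the widest ratio of the group at 48 h, 2.42 (interval 1.71 to 3.47), on 47 and 115 reads. FANCC and FANCF had intervals that included 1 at 48 h, with ratios of 1.11 and 1.09.

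FANCL, the ubiquitin ligase of the core complex, had another order of libraries. It stood at 5.53 with DMSO against 5.68 with melatonin at 24 h, and at 8.02 and 7.69 at 48 h. The libraries of the same time differed by less than counting error (ratios of 1.03, interval 0.862 to 1.22, and 0.960, interval 0.836 to 1.10), and both libraries of 48 h were above those of 24 h.

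FANCD2 and FANCI form the pair that receives the ubiquitin. FANCD2 stood at 6.94 with DMSO against 7.93 with melatonin at 24 h, and at 2.17 and 4.58 at 48 h. FANCI stood at 8.61 and 11.4 at 24 h and at 3.73 and 7.75 at 48 h. The pair had nearly the same ratio at 48 h, 2.11 (interval 1.87 to 2.39) for FANCD2 and 2.08 (interval 1.89 to 2.29) for FANCI, and both were highest with melatonin at 24 h and lowest with DMSO at 48 h.

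The checkpoint kinases divided by gene. ATM, which is activated by broken ends, stood at 4.71 with DMSO against 4.90 with melatonin at 24 h, and at 5.85 and 6.13 at 48 h. It held between 2071 and 3265 reads per library, and its ratios were 1.04 (interval 0.981 to 1.10) and 1.05 (interval 0.997 to 1.10), so the libraries of each time differed by less than counting error. ATR, which responds to stalled forks, stood at 2.22 and 2.90 at 24 h and at 1.52 and 2.52 at 48 h. CHEK1, the kinase downstream of ATR, stood at 5.80 and 6.55 at 24 h and at 3.14 and 5.28 at 48 h. CHEK2, the kinase downstream of ATM, stood at 5.70 and 6.32 at 24 h and at 3.17 and 6.11 at 48 h. These 3 had ratios of 1.66 to 1.93 at 48 h, and the interval of each lay above that of ATM.

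At 24 h the same members differed less. Of the 38 tested, 33 were higher with melatonin against 53.5% of all 13582 genes tested, and their median log2 fold change was 0.15 against 0.02. No member passed 2-fold in either direction, where 1.42% of all tested genes were 2-fold higher and 2.93% were 2-fold lower. The interval lay above 1 for 21 members, against 28.2% of all tested genes, and included 1 for 16. The largest log2 fold changes after FANCE and POLQ were those of RAD54L with 0.47, EXO1 with 0.46 and BARD1 with 0.42. Of all 41 members, 34 were higher with melatonin at both times, 20 had an interval above 1 at both times, and 38 had a higher log2 fold change at 48 h than at 24 h. The median of that difference was 0.36, and the 3 exceptions were FANCF, MUS81 and FANCL. These counts over both times were made for the members only, with no share over all genes to set beside them.

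With DMSO, 35 of the 38 tested members were lower at 48 h than at 24 h, against 49.7% of all 13854 genes tested, and the median log2 fold change was -0.70 against 0.00. The members that fell by at least 2-fold were RMI2, BRCA1, FANCD2 and FANCI, and 0 rose by that much. Over all tested genes, 4.24% were 2-fold lower and 3.5% were 2-fold higher. RMI2 fell by 1.78 on the log2 scale, BRCA1 by 1.42, FANCD2 by 1.33 and FANCI by 1.02. PALB2 came next on this scale, just short of 2-fold. Without the added 1, its ratio was 0.437 (interval 0.383 to 0.497), a fall of 2.29-fold. The ratio was lower still for other tested members that also fell short on the log2 scale. These were BLM with 0.304, BRCA2 with 0.349, EME1 with 0.361, EXO1 with 0.368, BRIP1 with 0.382 and POLQ with 0.384. The 3 that were higher at 48 h were FANCL, ATM and MUS81, by 0.46, 0.26 and 0.23 on the log2 scale. The intervals of their ratios lay above 1.

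With melatonin, 31 of the 38 tested members were lower at 48 h than at 24 h, against 54.9% of all 13489 genes tested, with a median of -0.25 against -0.04. This depended on the scale, since with TPM 20 of 41 members were above 0 and their median was -0.02. No member passed 2-fold in either direction, while 2.45% of all tested genes were 2-fold higher and 1.71% were 2-fold lower. The lowest values were -0.72 for BRCA1, -0.68 for FANCD2, -0.66 for UBE2T, -0.65 for EXO1 and -0.62 for BLM. The highest were 0.38 for FANCL, 0.27 for ATM, 0.14 for EME1 and 0.08 for RAD52 and MRE11. The comparisons with DMSO and with melatonin over time use the same 4 libraries as those of treatment, so they describe the same levels again from the other side.

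**Figure D3:**
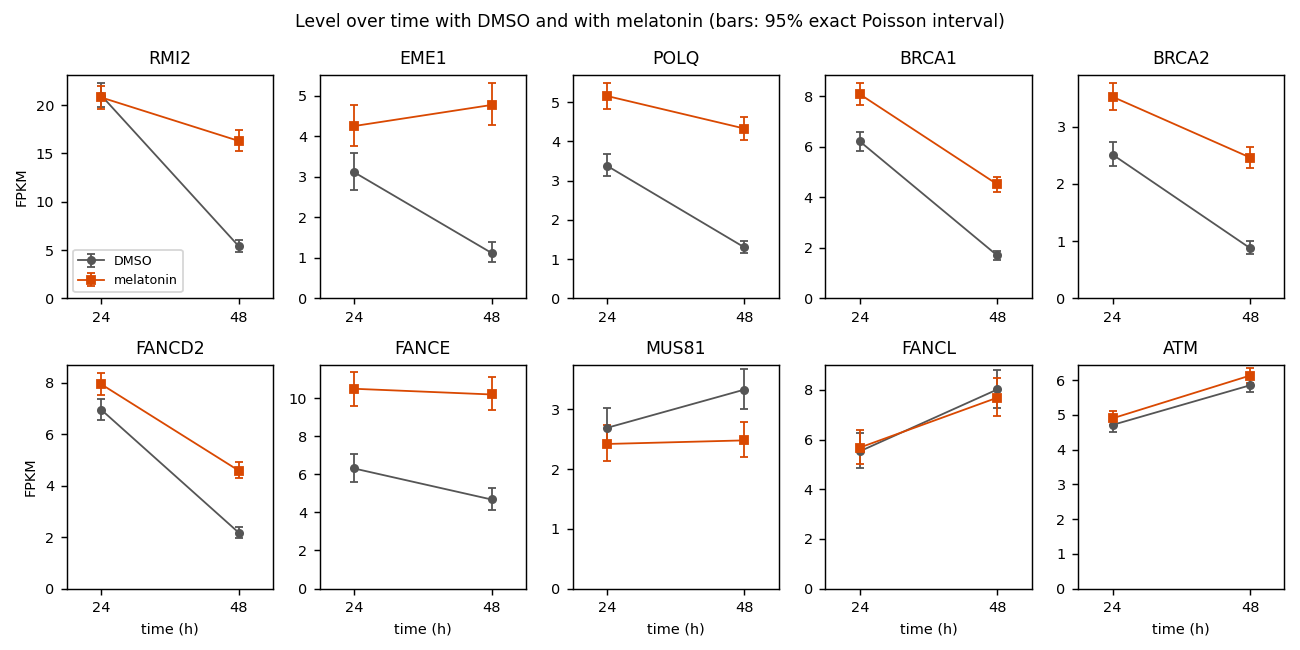
FPKM at 24 h and 48 h with DMSO (grey circles) and with melatonin (orange squares) for 10 of the genes, each on its own axis from 0, with 95% exact Poisson intervals as bars. For RMI2 the 24 h points coincide near 21 and separate to 5.40 and 16.3, EME1 separates to 1.12 and 4.77, and the lines of FANCL and ATM run together.

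Library scaling bears on the changes over time. The share of reads on genes of the mitochondrial genome was 20% (DMSO) and 16.6% (melatonin) at 24 h, and 9.77% and 11.9% at 48 h. Leaving these reads out of the library size shifted the median of all tested genes by 0.00 for melatonin at 24 h and 0.06 at 48 h. Over time the shift was -0.01 with DMSO and 0.05 with melatonin. Any further part of the mitochondrial reads in the members' changes was not tested. Rescaling to TPM shifted the median of all tested genes by 0.15 for melatonin at 24 h, by 0.46 over time with DMSO and by 0.27 over time with melatonin, and scaling to the summed reads on genes shifted the last pair by 0.14 and 0.11. Relative to the median of all genes, the members' median was 0.13 at 24 h, 0.62 at 48 h, -0.70 over time with DMSO and -0.21 over time with melatonin. With TPM these were 0.15, 0.68, -0.81 and -0.26. These differences from the median hardly respond to a rescaling, which moves all genes of a library nearly alike. Against 0, 10 of 41 members were above with TPM over time with DMSO, where 3 of 38 were with FPKM. Among all genes past 2-fold over time with DMSO, 45.2% were higher, against 80.7% with TPM and 61.8% with the sum of reads. Over time with melatonin the share was 58.9%, against 72.9%, 68.1% and, once GC content and length were corrected for, 47.9%. For melatonin at 24 h it was 32.7%, against 45.8% with TPM and 49.4% after that correction.

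The 50 other genes listed for recombination, the Fanconi pathway and its signalling had the same direction with a smaller size. At 48 h, 39 of 45 tested were higher with melatonin, with a median log2 fold change of 0.32, and 2 passed 2-fold. These were FAAP100, a partner of FANCB in the core complex, with 1.08, and CLSPN, the mediator between ATR and CHEK1, with 1.05. At 24 h, 36 of 46 were higher, with a median of 0.12. For the 10 genes of non-homologous end joining, the route that seals breaks without a template, 7 of 9 tested were higher at 48 h with a median of 0.05 and 0 past 2-fold. The members' median of 0.60 was beside 0.23 for 23 tested genes of excision and mismatch repair, of which 18 were higher.

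Genes of the replication fork and most markers of proliferation were also higher with melatonin at 48 h and lower at 48 h than at 24 h with DMSO, and at 24 h they were divided. All 36 replication fork genes were higher with melatonin at 48 h, with a median of 0.73 and 4 past 2-fold, and 36 of 36 were lower at 48 h than at 24 h with DMSO, with a median of -1.01. At 24 h, 22 of 36 were higher with melatonin and 14 were lower, with a median of 0.07. Of the 12 proliferation markers, 11 were tested, and their median was 0.03 at 24 h, 0.63 at 48 h, -1.17 over time with DMSO and -0.75 over time with melatonin. With melatonin, 6 of the 11 were higher and 5 lower at 24 h, and 9 were higher and 2 lower at 48 h. Their summed FPKM was 424 with DMSO against 409 with melatonin at 24 h, and 176 and 280 at 48 h. MKI67, which marks cycling cells, stood at 30.6 and 29.3 at 24 h and at 8.68 and 15.2 at 48 h. E2F1, a transcription factor of the entry into S phase, passed 2-fold at 48 h with an FPKM of 17.2 with DMSO and 70.0 with melatonin. The 2 that were lower at 48 h were the mitotic kinases PLK1, with a log2 fold change of -0.50, and AURKA, with -0.15. The part of these genes, and of the share of dividing cells, in the members' levels was not tested.

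**Figure D4:**
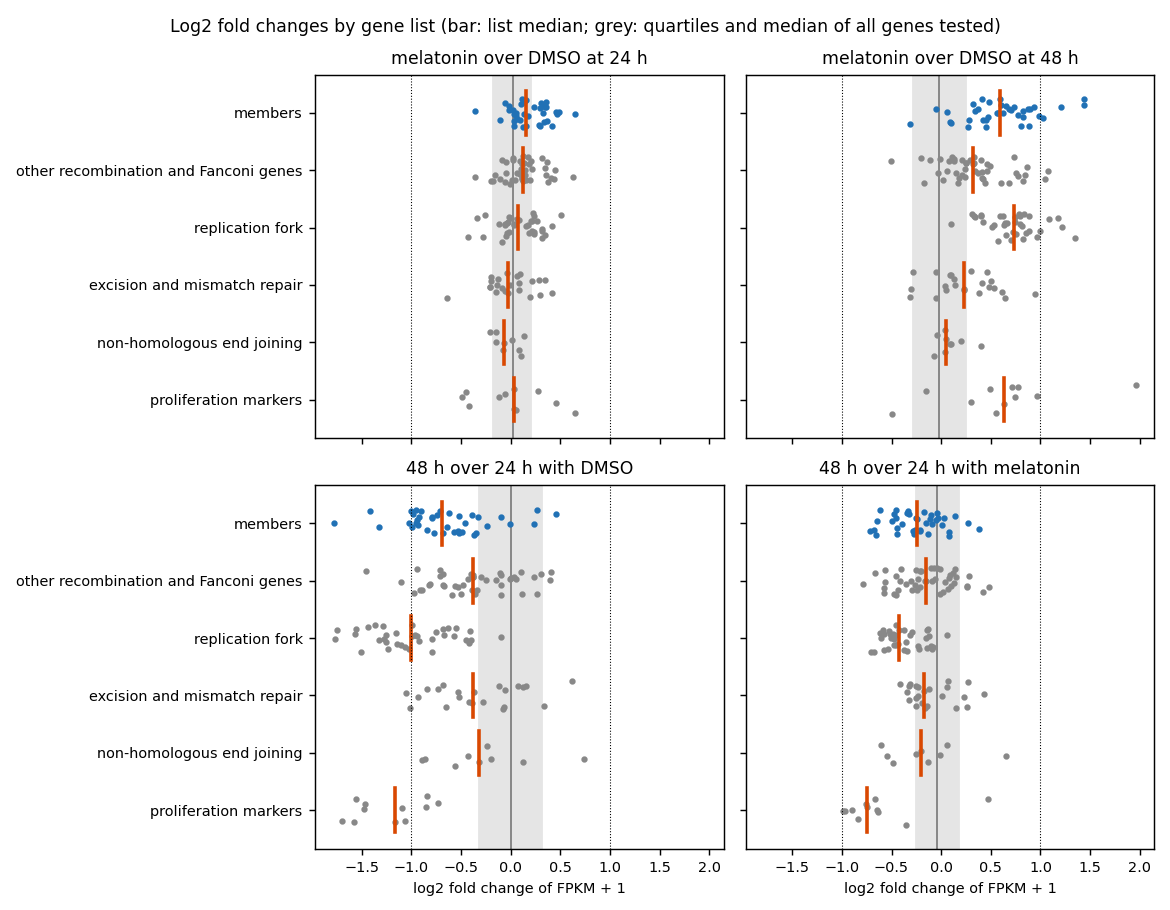
Log2 fold change of FPKM + 1 for the tested genes of 6 lists in the 4 comparisons, with a point per gene, an orange bar at each list's median, and a grey band and line for the quartiles and the median of all tested genes. At 48 h the medians are 0.60 for the members, 0.32 for the other recombination and Fanconi genes, 0.73 for the replication fork and 0.05 for non-homologous end joining.

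The choice of 1 as the number added to FPKM set how many members passed 2-fold. With 0.1 added, 14 of the 38 were 2-fold higher with melatonin at 48 h, against 5.48% of all tested genes, and 14 were 2-fold lower at 48 h than at 24 h with DMSO, against 7.9%. The members that joined RMI2, EME1, POLQ and BRCA1 at 48 h were BRIP1, BRCA2, RAD51AP1, RAD54L, EXO1, BLM, FANCB, FANCE, FANCD2 and FANCI.

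The members lie on 18 chromosomes, with 6 on chromosome 17 and 5 on chromosome 11. The gene length used by the authors ran from 1065 bp for UBE2T to 23972 bp for ATM, with a median of 6068 bp against 4031 bp over the genes tested at 48 h. In the coordinates of the files, on hg38, 30 members are overlapped by another gene, and whether strand was used in counting is not given in the sources used here. EME1 (chr17:50373220-50381483) shares 6425 bp with LRRC59 on the other strand, whose FPKM was 58.8 with DMSO against 45.4 with melatonin at 24 h, and 43.2 and 39.2 at 48 h. The order of libraries of LRRC59 was not that of EME1. NBN shares 1824 bp with DECR1 on the other strand, whose order of libraries was that of NBN. The FPKM of DECR1 was 7.32 with DMSO against 8.58 with melatonin at 24 h, and 3.65 and 6.16 at 48 h. MUS81 (chr11:65857126-65867653) shares 4901 bp with CFL1 on the other strand, with an FPKM between 38.3 and 45.1. BRCA1 (chr17:43044295-43170245) shares 21878 bp with the non-coding AC060780.1 on the same strand, whose FPKM of 2.77 and 1.93 at 24 h and of 6.11 and 3.86 at 48 h was highest where that of BRCA1 was lowest. RMI2 (chr16:11249619-11351762) shares 1775 bp with SOCS1 on the other strand, which stood between 5.11 and 6.74. On the same strand, RAD50 shares 90061 bp with AC116366.3, RAD51D shares 29286 bp with AC004223.3 and RAD54B shares 64783 bp with FSBP. AC116366.3 held at most 11 reads in a library, AC004223.3 held 0 and FSBP at most 12. How reads in these stretches were divided was not tested. The 8 pseudogene copies listed for RAD51AP1, MRE11, RBBP8, FANCD2 and CHEK2 held 0 reads in each library.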

How the data were processed

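Polyadenylated RNA of HepG2 cells was sequenced as paired ends, 1 library per condition. The authors' methods name MapSplice on hg38 and Cufflinks, while the submitters' processing notes list Bowtie2 2.0.6, TopHat2 2.0.9, Cufflinks 2.1.1 and Cuffdiff 2.1.1. The deposited values are FPKM per Ensembl gene with the gene length, and the authors' annotation release and library-size denominator are not given in the sources used here. Multiplying FPKM by length gave whole reads within 0.05 read for 100% of values, 21616676 to 23086025 per library. Recovery and calls were tested on simulated data.

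Fold changes were log2((FPKM + 1)/(FPKM + 1)), with exact Poisson intervals for levels and exact Clopper-Pearson intervals for ratios. With 1 library per condition, no test of a condition was run. The members and lists were chosen with earlier results of these data known. Of 191 listed genes, 1 was found by gene ID under an older symbol. Members named in every library were those past 2-fold for melatonin, the 5 highest and 5 lowest in each comparison, and 15 pathway genes fixed by name; further members are given as parts of their groups. Promoters were planned for the 4 highest members at 48 h. Alternatives were a pseudocount of 0.1, no filter, minimum FPKM of 5, minimum of 50 reads, a 1.5-fold threshold, TPM, sum of reads, no mitochondrial reads, median centring, and a correction for GC content and length. Python 3.11, numpy 2.4.6, pandas 2.3.3, scipy 1.17.1 and matplotlib 3.10.9 were used.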

Additional observations from a re-analysis of the deposited data

Results flagged for a closer look

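RAD51C was set apart because its melatonin and DMSO libraries differed in opposite directions at 24 h and at 48 h. Its log2 fold change was -0.36 at 24 h and 0.32 at 48 h, a difference of 0.68, and the counting interval of the ratio excluded 1 at each time. With 1 library per condition the difference was not tested. Of the 38 tested members 5 had, and of all 41 members 6 had, opposite signs at 24 h and 48 h. The share of all genes with opposite signs was not counted.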

How the results depend on the processing

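Each condition has 1 library, so none was left out, and no model over both times was fitted. Of 152 counts and medians recomputed under the alternatives, 134 stayed within 1.5 times the count or within the typical counting interval of the members for a median, and 18 moved. The minimum FPKM of 5 tested fewer members and left 18 of 21 above 0 with melatonin at 24 h, 15 of 16 at 48 h with 1 past 2-fold higher (1.59% of all tested genes), and 3 of 22 above 0 over time with melatonin. At a 1.5-fold threshold, 1 of 38 members was higher at 24 h (4.02% of all tested genes), 20 were higher at 48 h (8.62%), 22 were lower over time with DMSO (12.6%) and 5 were lower over time with melatonin (6.05%). A pseudocount of 0.1 gave 14 higher at 48 h and 14 lower over time with DMSO. TPM gave 7 of 41 past 2-fold higher at 48 h (5.95% of all tested genes), 10 of 41 above 0 over time with DMSO with a median of -0.35, and 20 of 41 above 0 over time with melatonin with a median of -0.02. The sum of reads gave 5 and 11 of 38 above 0 over time with DMSO and with melatonin, and leaving mitochondrial reads out gave 7 of 39 past 2-fold lower over time with DMSO (4.51%). The TPM and read-sum values over time include the shift of all genes given above. For melatonin at 48 h, TPM shifted the median of all tested genes by -0.04. The cause of the count with TPM at 48 h and of the other moves was not tested beyond the number of genes tested. For the named members, values of the opposite sign were 11 of 242 at 24 h, 1 of 237 at 48 h, 3 of 241 over time with DMSO and 14 of 243 over time with melatonin. Depth limits RAD51B and RAD54B most, with as few as 34 and 29 reads.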
